A study of Mus musculus with 6 samples.

Results

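Skeletal muscle lies directly against the long bones from which growth plate cartilage is dissected, and 38 genes of striated muscle were followed here, library by library, as a measure of how much adjoining muscle RNA the cartilage preparations held. The genes were chosen by symbol, and 34 of the 38 had an entry among the 15803 genes of the expression table. Myh7, Klhl41, Cacna1s and Pax7 had none and were not analysed here. RNA-seq was performed on growth plate cartilage of mouse embryos at E18.5, with 3 libraries of each genotype. The WT embryos were Hnrnpk fl/fl, that is, both copies of Hnrnpk carried loxP sites around exons 4 to 7, and no Cre was present. The conditional knockout (CKO) embryos carried the same alleles together with Col2a1-Cre, a recombinase driven by the regulatory sequence of the collagen II gene and therefore directed to cartilage cells. Both sexes were used in the study, and the labels of the libraries do not say whether each came from a separate embryo, so p-values measure the spread between these libraries.

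Skeletal muscle fibres contract when actin-based thin filaments slide past myosin-based thick filaments inside the sarcomere, which is bounded by Z-discs. The trigger is calcium released from the sarcoplasmic reticulum, which binds the troponin complex on the thin filament. Fibres form when myoblasts, driven by the transcription factors Myf5, MyoD, myogenin and MRF4, leave the cell cycle and fuse, and fast and slow fibres use different isoforms of the same sarcomere proteins.

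The libraries were shallow, with 1153871 to 1454094 reads assigned to genes, so that 1 read stood for 0.688 to 0.867 CPM, the count scaled to the total of the library. A gene with 3 reads or fewer, 2.06 to 2.60 CPM, counted as at the detection floor. Libraries WT 3 and CKO 2 stood apart from the others of their genotype over all genes. Counting error alone would give a mean chi-square per gene of about 1 between 2 libraries. The mean chi-square per gene between WT 1 and WT 2 was 1.89, whereas WT 3 differed from them by 7.92 and 7.27. That between CKO 1 and CKO 3 was 1.27, whereas CKO 2 differed from them by 11.8 and 10.9. Hnrnpk itself was at 842 to 955 CPM in WT and 759 to 949.9 CPM in CKO, with CKO 2 the highest of the CKO libraries (log2 fold change -0.14, limma's adjusted p = 0.622). These are RNA levels of the whole gene. The paper reported loss of the Hnrnpk protein from CKO growth plates at an earlier embryonic stage, by western blot and immunostaining. The 10 chondrocyte markers listed were all detected, with a summed level of 14760 to 20121 CPM in WT and 3780 to 4682 CPM in CKO, and 8 of them fell past the adjusted threshold of 0.05 in CKO.

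The muscle genes made up a small part of every library. Summed over the 34, they reached 160.2, 109 and 427 CPM in the WT libraries 1 to 3, against 215, 434 and 218 CPM in the CKO libraries 1 to 3. Values are given in this library order from here on. WT 3 and CKO 2 were therefore the highest libraries of the 2 genotypes, and their levels lay close to each other, although they reached them through different genes. As a share of reads the lowest library was WT 2 at 0.0109% (95% exact binomial interval 0.00918% to 0.0128%) and the highest was CKO 2 at 0.0434% (0.0400% to 0.0470%). These intervals cover counting error only. The mean was 232 ± 171 CPM in WT and 289 ± 126 CPM in CKO (SD, n = 3), so the genotypes differed by less than the spread between libraries. Without WT 3 the ratio of the CKO mean to the WT mean went from 1.25 to 2.15, and without CKO 2 it was 0.933. In such bulk samples fewer muscle cells and less RNA per muscle cell cannot be told apart. Whether other cells made part of these reads was not tested.

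**Figure D1:**
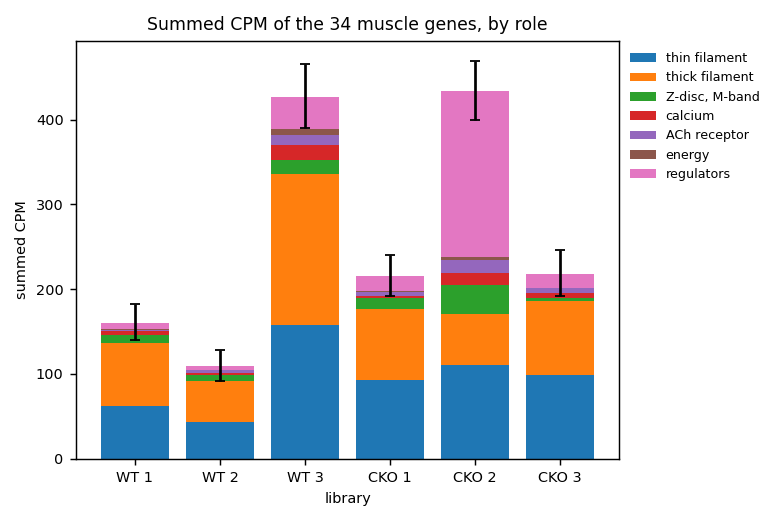
Summed level (CPM, y axis) of the 34 muscle genes in each of the 6 libraries (x axis), stacked by the role of the genes, with black bars for the 95% exact binomial counting interval of the sum. WT 3 at 427 CPM and CKO 2 at 434 CPM are the tallest, the former through thin and thick filament genes and the latter through the regulators.

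The RNA of these genes was that of a few sarcomere proteins and myogenin. Of the 34 genes, 9 had more than 3 reads in every library, namely Tnnt3, Tnnc1, Tnnc2, Tnni1, Tnni2, Myl1, Myl4, Mylpf and Myog. A further 13 exceeded 3 reads in some libraries, and 12 never did. Those 12 included titin (Ttn), the giant spring of the sarcomere, with 0 to 2 reads in each library, and both myosin heavy chains with an entry, Myh3 with at most 3 reads and Myh8 with 1 read in all. Myh8 shares near-identical stretches with Myh1, Myh2, Myh4 and Myh13, so its reads may have been divided or dropped in counting. Heavy chains and titin are among the defining genes of differentiated fibres, so that the label of skeletal muscle rested here on light chains, troponins and myogenin. Corrected for transcript length, the mean level over the 6 libraries was 36.7 CPM per kb of exon for Mylpf, 28.0 for Myog, 19.2 for Tnnc2, 18.7 for Tnnc1, 16.1 for Tnnt3 and 13.6 for Myl1, but 0.00442 for Ttn. The value of Myog came mainly from CKO 2 and was 9.68 CPM per kb without that library, below those of Mylpf, Tnnc2, Tnnc1, Tnnt3 and Myl1.

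**Figure D2:**
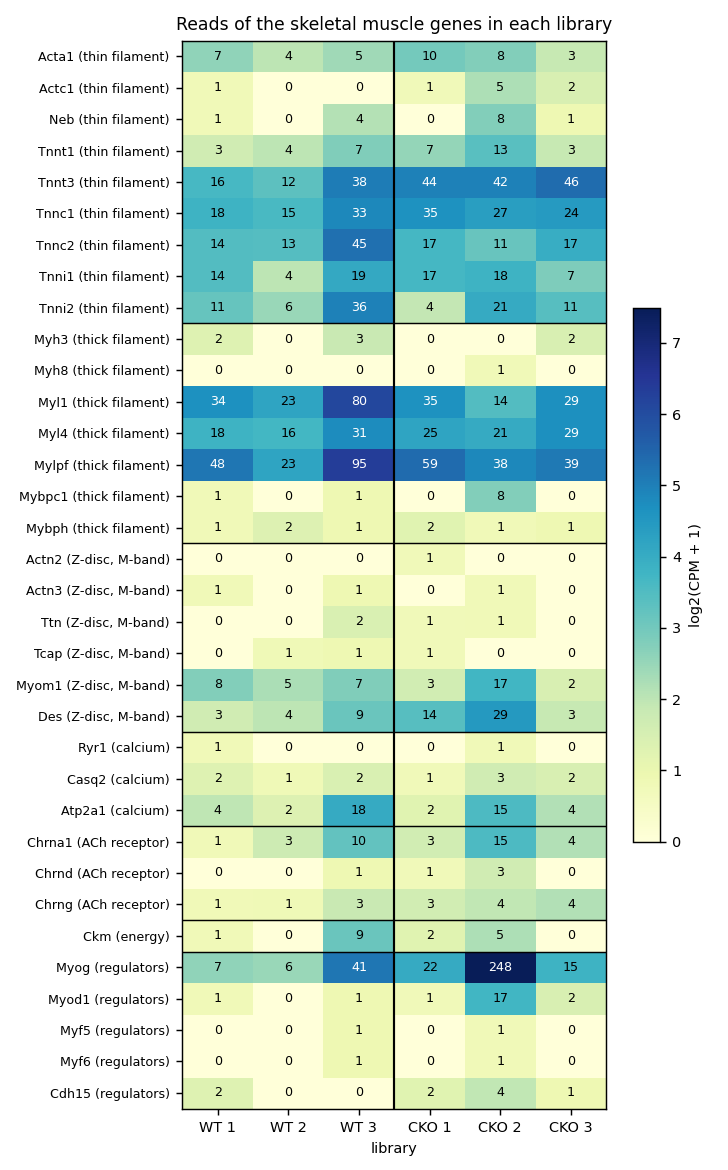
Reads of each muscle gene (rows, grouped by role) in each library (columns), printed in the cells, with the colour giving log2(CPM + 1). The light chain, troponin C and troponin I genes are darkest in WT 3, Tnnt3 in CKO 3 and Tnnt1 in CKO 2, and Myog reaches 248 reads in CKO 2.

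Of the 34 genes, 24 had a mean of at least 1 CPM and were tested between the genotypes with limma on log2(CPM + 1), together with all 12155 genes at that level. None of the 24 passed an adjusted p of 0.05 in either direction, where 5.78% of all genes tested did (3.18% higher and 2.60% lower in CKO). At an unadjusted p under 0.05 there was 1, Tnnt3, where the share over all genes was 21.3%. It was also the only one past the criterion of the study's methods (a log2 fold change beyond 1 or -1 at an unadjusted p below 0.05), which 5.30% of all genes passed upward and 5.10% downward. Run on the recovered reads, edgeR called 0 of the 10 muscle genes it kept (9.57% of all genes it kept), with 0 at an unadjusted p under 0.05. DESeq2 called 0 of the 10 to which it gave an adjusted p (7.69% of all such genes). It had 1, Myod1, at an unadjusted p under 0.05 among the 34 other than Myog, to which it gave no p. The levels of WT and CKO libraries overlapped for all 24 of these genes, whereas they did not overlap for 27.7% of all genes tested. Of the 24 log2 fold changes 16 were positive and 8 negative. Their median was 0.24, against 0.013 over all genes tested. That median was 0.71 without WT 3 and 0.029 without CKO 2. The intervals were wide, as the plot of log2 fold changes shows, so that differences of more than 2-fold in either direction lie within several of them.

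**Figure D3:**
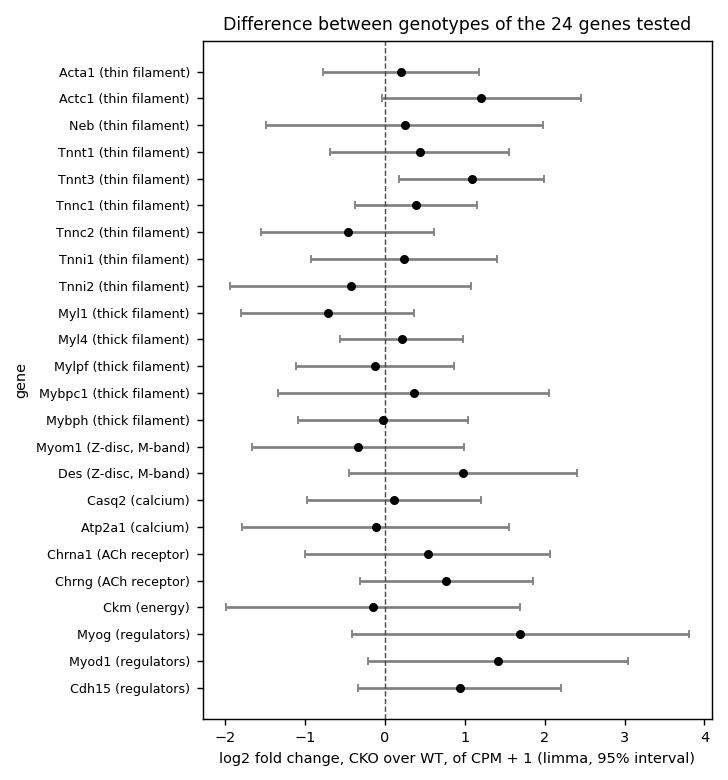
log2 fold change of CPM + 1, CKO over WT (x axis), for the 24 muscle genes tested (y axis, with the role in brackets). Points are limma estimates and bars their 95% intervals, and the interval of Tnnt3, from 0.18 to 1.99, is the only one that lies wholly on one side of 0.

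The thin filament genes encode actin, nebulin and the 3 troponin subunits, and all 9 were tested, with 7 positive and 2 negative differences and a median of 0.25. Tnnt3, the fast fibre form of troponin T that ties the complex to tropomyosin, was at 11.6, 9.01 and 32.1 CPM in the WT libraries 1 to 3 and at 30.3, 30.3 and 39.9 CPM in the CKO libraries 1 to 3. All CKO libraries were high and so was WT 3, while WT 1 and WT 2 were low. The means were 17.6 ± 12.7 CPM in WT and 33.5 ± 5.53 CPM in CKO (SD, n = 3), and the log2 fold change was 1.09 with an SE of 0.41 (limma's adjusted p = 0.156). Without WT 3 it was 1.61 and passed the threshold (limma's adjusted p = 0.0167, where 2.66% of all genes were higher in CKO). Its adjusted p lay between 2.79e-04 and 0.403 over the alternatives run. Tnnc2, the calcium-binding subunit of fast fibres, was at 10.1, 9.76 and 38 CPM in the WT libraries and at 11.7, 7.94 and 14.7 CPM in the CKO libraries. Only WT 3 stood out, and the other 5 libraries lay within a narrow band. Its log2 fold change was -0.46 (limma's adjusted p = 0.634), and 0.15 without WT 3.

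Tnni2, the inhibitory subunit of fast fibres, was also highest in WT 3, at 30.4 CPM against 7.97 and 4.5 CPM in WT 1 and 2, with 2.75, 15.2 and 9.53 CPM in CKO 1, 2 and 3. Tnnc1, the troponin C shared by slow fibres and heart, was more even, at 13.0, 11.3 and 27.9 CPM in the WT libraries and 24.1, 19.5 and 20.8 CPM in the CKO libraries (log2 fold change 0.39, limma's adjusted p = 0.563). The slow forms Tnni1 and Tnnt1 had 4 to 19 and 3 to 13 reads per library and differences of 0.24 and 0.44. Alpha-actin of skeletal muscle, Acta1, which is among the most abundant transcripts of a mature fibre, had only 3 to 10 reads per library (2.60 to 6.88 CPM) and a difference of 0.20 (limma's adjusted p = 0.839). Actc1, the alpha-actin of heart and of embryonic muscle, had 0 or 1 read in WT libraries and 1, 5 and 2 in CKO 1, 2 and 3. Neb, which encodes the nebulin that runs along the thin filament, had at most 8 reads, in CKO 2.

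Of the 8 thick filament genes 7 had an entry and 5 were tested. Above Myog in 5 of the 6 libraries was Mylpf, the regulatory light chain of fast myosin (chromosome 7, 127208890 to 127214298, plus strand, in the GENCODE annotation of GRCm38). It was at 34.8, 17.3 and 80.3 CPM in the WT libraries and at 40.6, 27.4 and 33.8 CPM in the CKO libraries. The CKO libraries thus lay between the WT extremes, and the log2 fold change was -0.12 with an interval from -1.11 to 0.87 (limma's adjusted p = 0.907). Myl1, the essential light chain of fast myosin, was at 24.6, 17.3 and 67.6 CPM in the WT libraries and at 24.1, 10.1 and 25.1 CPM in the CKO libraries (log2 fold change -0.71, limma's adjusted p = 0.440). Its transcript has 1 near-identical copy, the pseudogene Mylf-ps, so reads may have been divided between them. WT 3 had the highest value of both light chains and CKO 2 the lowest of the CKO libraries, which is the opposite of its place for Myog. Myl4, the light chain of embryonic muscle and of the atria, was at 13.0, 12.0 and 26.2 CPM in the WT libraries and 17.2, 15.2 and 25.1 CPM in the CKO libraries, with a difference of 0.21. The myosin-binding proteins were scarce, with Mybpc1 at 8 reads in CKO 2 and at most 1 read elsewhere, and Mybph at 1 or 2 reads in every library.

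Beyond the filaments, desmin was the clearest gene of the Z-disc and M-band group, of which 6 of 7 had an entry and 2 were tested. Des, the intermediate filament that links Z-discs and is also made by smooth and heart muscle, was at 2.17, 3.0 and 7.60 CPM in the WT libraries and at 9.63, 20.9 and 2.60 CPM in the CKO libraries. Its highest library was CKO 2, while CKO 3 lay among the low WT libraries (log2 fold change 0.98, SE 0.64, limma's adjusted p = 0.417). Myom1, which encodes the M-band protein myomesin, likewise peaked in CKO 2 at 12.3 CPM, against 2.06 and 1.73 CPM in CKO 1 and 3 and 3.75 to 5.91 CPM in WT. Actn2, Actn3 and Tcap of the Z-disc did not exceed 1 read in any library. Among the calcium-handling genes, Atp2a1, the calcium pump of the fast fibre reticulum, had 4, 2 and 18 reads in WT and 2, 15 and 4 in CKO, so that WT 3 and CKO 2 were the high libraries, while Ryr1, the release channel, had at most 1 read and Casq2, a calcium store of the reticulum, at most 3.

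The embryonic acetylcholine receptor is built from alpha, beta, gamma and delta subunits at the neuromuscular junction. Its alpha subunit gene Chrna1 was at 0.725, 2.25 and 8.45 CPM in the WT libraries and at 2.06, 10.8 and 3.47 CPM in the CKO libraries, again with WT 3 and CKO 2 on top (log2 fold change 0.54, limma's adjusted p = 0.707). Chrng, the gamma subunit of fetal receptors, had 1 to 4 reads and a difference of 0.77 (limma's adjusted p = 0.395), and Chrnd had at most 3 reads. Ckm, the creatine kinase that regenerates ATP in fibres, had 1, 0 and 9 reads in WT and 2, 5 and 0 in CKO.

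Among the regulators of myogenesis most reads were those of Myog in CKO 2. Myog, which encodes myogenin, the factor of myoblasts that are about to fuse (chromosome 1, 134289989 to 134292548, plus strand), was at 5.07, 4.5 and 34.6 CPM in the WT libraries and at 15.1, 179 and 13.0 CPM in the CKO libraries. CKO 2 held 248 of its 339 reads, with a 95% exact Poisson interval of 157 to 203 CPM, and the next library, WT 3, had an interval of 24.9 to 47.0 CPM. These intervals cover counting error within a library and not the spread between libraries. The means were 14.7 ± 17.2 CPM in WT and 69.0 ± 95.2 CPM in CKO (SD, n = 3), with a log2 fold change of 1.70 and an SE of 0.95 (limma's adjusted p = 0.337). Its adjusted p lay between 0.0166 and 0.695 over the alternatives, and the log2 fold change was 0.50 without CKO 2 and 2.57 without WT 3. DESeq2 gave no p for Myog. Myod1, which encodes the myoblast determination factor, followed the same library, with 17 reads in CKO 2 and 0 to 2 in each of the others (log2 fold change 1.42, limma's adjusted p = 0.299). Cdh15, the cadherin of myoblasts and satellite cells, had 4 reads in CKO 2 and 0 to 2 elsewhere, and Myf5 and Myf6 had at most 1 read in any library.

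**Figure D4:**
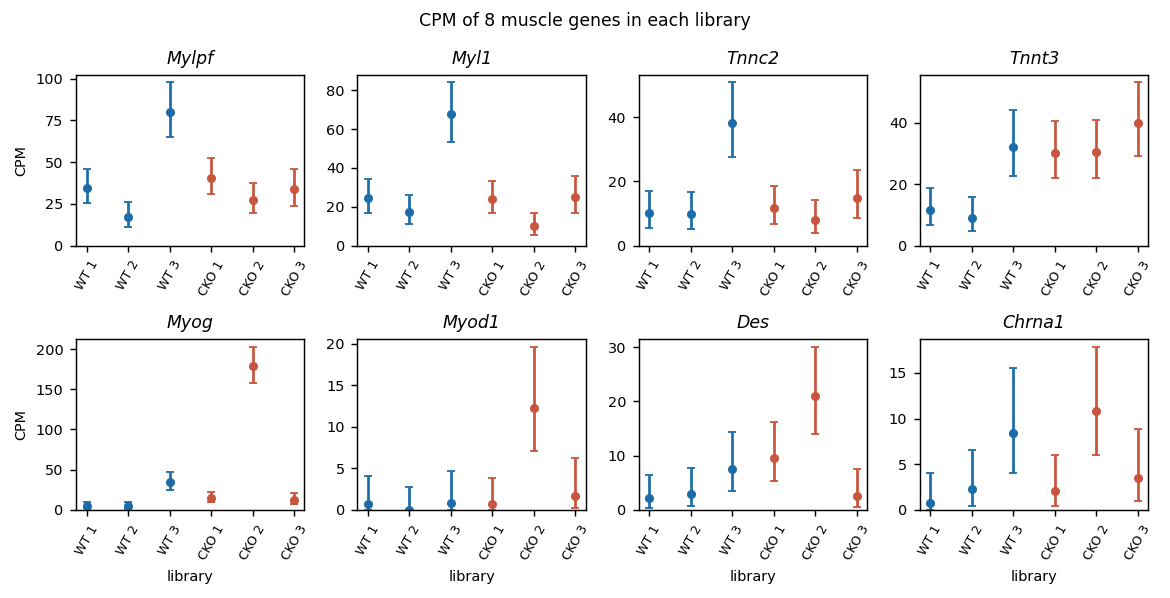
Level (CPM, y axes, each with its own scale) of 8 muscle genes in the WT libraries (blue) and CKO libraries (orange) (x axes), with bars for the 95% exact Poisson counting interval. Mylpf, Myl1 and Tnnc2 peak in WT 3, Myog, Myod1 and Des in CKO 2, and Tnnt3 is low only in WT 1 and WT 2.

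Most muscle genes were thus highest in a library that stood apart over all genes. Of the 24 genes tested, 9 were highest in WT 3 and 11 in CKO 2, together 83.3%, against 43.3% of all genes tested. WT 3 was the highest WT library for 20 of the 24, or 83.3% against 41.2% of all genes, and CKO 2 the highest CKO library for 15, or 62.5% against 41.1%. For Myod1, Mybpc1 and Casq2 WT 3 had only as many reads as WT 1, and for Myom1 fewer (7 against 8). Its first place among the WT libraries for these genes came from its smaller read total. Mybpc1, Actc1, Cdh15, Myod1 and Neb averaged under 1 CPM without CKO 2 (0.31 to 0.994 CPM). They passed the filter for testing only through that library, so their place in the CKO 2 counts was largely set by the filter. The difference between the highest and the lowest library had a median of 2.18 on the log2(CPM + 1) scale over the 24 genes and of 1.28 over all genes tested. These ranges were not matched for level. Of the 24 genes 12 averaged 5 CPM or more, against 8690 of all 12155 genes tested. At low levels few reads make a wide range, as for Neb and Mybpc1 with 2.76 from at most 8 reads. Myog had a range of 5.03, larger than that of 99.8% of the genes tested, and Myod1 one of 3.73, larger than 98.7%. With WT 3 and CKO 2 both left out, 18 of the muscle genes were tested and 2 were higher in CKO past the threshold, Tnnt3 (log2 fold change 1.67, limma's adjusted p = 2.79e-04) and Myog (1.38, limma's adjusted p = 0.0166), where 20.2% of all genes tested passed in either direction and 11.0% of all genes tested were higher in CKO. This pair of libraries was left out after their values had been seen. The libraries kept had the smallest spread within their genotypes (mean chi-square 1.89 for WT and 1.27 for CKO), and the p-values of this fit rest on that spread.

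Myogenin and MyoD bind E-boxes, DNA sites of the form CANNTG, which reads the same on both strands. The 250 bases before the RefSeq transcription start are printed for 4 genes that peaked in the libraries standing apart, Myog and Des as genes highest in CKO 2, Mylpf as one highest in WT 3 and Chrna1 as one high in both. Capitals mark each CANNTG, and no TATAAA (either strand) lies in these 4 windows. Sequences are from RefSeq on GRCm38.p6, 5′ to 3′ on the strand of the gene, for Myog chr1:134289754-134290003 (plus), Des chr1:75360042-75360291 (plus), Chrna1 chr2:73580339-73580588 (minus) and Mylpf chr7:127211358-127211607 (plus).
Myog: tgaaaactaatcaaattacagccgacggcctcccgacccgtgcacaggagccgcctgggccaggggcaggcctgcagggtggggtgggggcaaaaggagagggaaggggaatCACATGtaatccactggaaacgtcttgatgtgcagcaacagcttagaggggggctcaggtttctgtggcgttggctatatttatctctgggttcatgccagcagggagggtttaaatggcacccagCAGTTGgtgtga
Des: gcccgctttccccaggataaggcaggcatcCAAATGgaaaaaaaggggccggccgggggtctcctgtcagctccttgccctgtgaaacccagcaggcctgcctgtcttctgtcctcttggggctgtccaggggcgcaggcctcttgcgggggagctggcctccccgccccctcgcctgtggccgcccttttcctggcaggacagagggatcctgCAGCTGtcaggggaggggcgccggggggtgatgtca
Chrna1: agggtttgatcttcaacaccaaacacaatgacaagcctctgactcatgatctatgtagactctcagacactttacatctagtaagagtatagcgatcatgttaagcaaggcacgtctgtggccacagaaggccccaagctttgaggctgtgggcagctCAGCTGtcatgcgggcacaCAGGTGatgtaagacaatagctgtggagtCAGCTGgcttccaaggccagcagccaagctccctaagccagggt
Mylpf: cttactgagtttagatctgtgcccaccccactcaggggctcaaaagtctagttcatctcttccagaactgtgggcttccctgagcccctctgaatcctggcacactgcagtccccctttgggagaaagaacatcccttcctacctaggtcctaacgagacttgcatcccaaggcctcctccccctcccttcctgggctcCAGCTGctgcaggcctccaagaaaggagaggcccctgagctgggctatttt

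The E-boxes began 138 and 12 bases before the RefSeq start of Myog, 220 and 36 before that of Des, 92, 73 and 44 before that of Chrna1 and 51 before that of Mylpf. RefSeq and GENCODE place some starts differently. The whole Mylpf window and the last bases of the Myog window lie within the GENCODE loci given above. RefSeq windows were given for 26 of the 34 genes, 27 windows in all, and 23 of these (85.2%) held at least 1 CANNTG, against 66.2% of 32851 windows of all genes. At least 2 were found in 14 (51.9%), against 31.8%, and TATAAA in 6 (22.2%), against 12.4%. These are matches of letters, and binding was not measured.

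Where only muscle makes them, the relative amounts of these genes within a library do not depend on how much muscle it held. Myog made up 41.3% of the muscle gene reads in CKO 2 and 3.17% to 8.12% in the other libraries. Without Myog the sum was 155, 104 and 392 CPM in the WT libraries, against 200.1, 255 and 205 CPM in the CKO libraries, which brought CKO 2 close to the other CKO libraries and left WT 3 apart. Of the other 8 genes above 3 reads in every library, Tnnt3 took a larger share of these reads in every CKO library (15.5% ± 3.81 against 8.10% ± 0.58 in WT, SD, n = 3) and Myl1 a smaller one (9.43% ± 4.73 against 16.6% ± 0.68). The shares of the remaining 6 overlapped between the genotypes. These 2 of 8 are shares of the muscle gene reads, a measure with no counterpart over all genes. By level, none of the 24 muscle genes tested separated the genotypes, against 27.7% of all genes tested.

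Ratios of fast or mature to slow or embryonic isoforms were compared for 5 of 11 listed pairs, since the others had a gene without an entry or at the floor throughout. With 3 against 3 libraries the exact two-sided permutation test cannot go below p = 0.1, so no pair could pass 0.05. The log2 ratio of Tnnc2 to Tnnc1, fast over slow troponin C, was -0.35, -0.20 and 0.44 in WT and -1.02, -1.26 and -0.49 in CKO, with every CKO library below every WT library (difference -0.88, exact permutation p = 0.1, 0.25 adjusted over the 5 pairs). That of Myl1 to Myl4, adult fast over embryonic light chain, was 0.90, 0.51 and 1.35 in WT and 0.48, -0.57 and 0.00 in CKO, which did not overlap either (difference -0.95, exact permutation p = 0.1, 0.25 adjusted). The ratio of Tnnt3 to Tnnt1 differed by 0.63 in the other direction, from 2.02 ± 0.48 in WT to 2.65 ± 1.04 in CKO (SD, n = 3, exact permutation p = 0.4), and the difference was 0.088 without CKO 3 and 1.13 without CKO 2. Tnni2 to Tnni1 and Acta1 to Actc1 differed by -0.74 and -1.68 with overlapping libraries (exact permutation p = 0.6 and 0.2), the last from very few Actc1 reads.

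**Figure D5:**
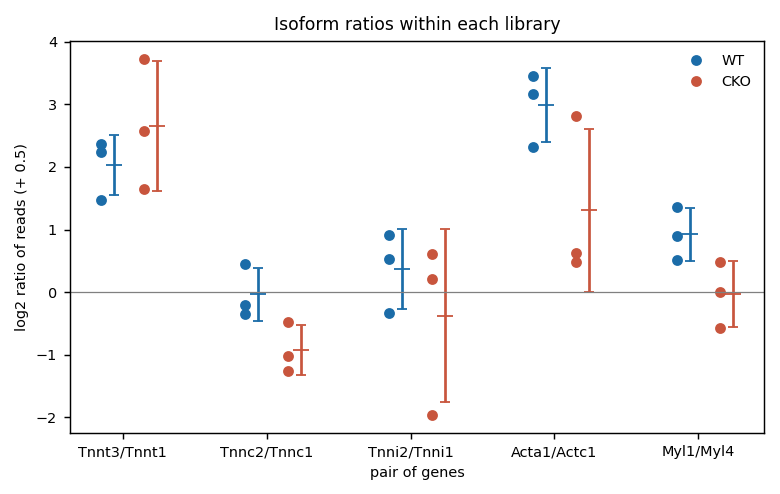
log2 ratio of reads (with 0.5 added to each count, y axis) for 5 pairs of isoform genes (x axis) in the WT libraries (blue) and CKO libraries (orange). Points are libraries, horizontal ticks the means and bars the SD (n = 3), and the genotypes do not overlap for Tnnc2/Tnnc1 and Myl1/Myl4.

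A further 102 muscle genes outside the 38 had 85 entries, 46 of them never above 3 reads and 40 tested. Their summed level was above that of the 34 genes in every library, from 449 to 560 CPM in WT and from 669 to 717 CPM in CKO. The largest part came from the wider sarcomere list, at 204 to 281 CPM in WT and 436 to 497 CPM in CKO, of which Tpm2 and Cryab made up the greater part. In this wider list 2 genes were higher in CKO past the adjusted threshold and none was lower (3.18% and 2.60% of all genes). The median was 0.11, and 8 of the 40 genes tested had an unadjusted p under 0.05, where the share over all genes was 21.3%. Tpm2, a tropomyosin that is also made by smooth muscle and fibroblasts, was at 117, 146 and 126 CPM in the WT libraries and at 203, 230.2 and 188 CPM in the CKO libraries (log2 fold change 0.67, limma's adjusted p = 0.0423). Cryab, a small heat shock protein found in muscle, lens and many stressed cells, was at 65.2, 69.0 and 118 CPM in the WT libraries and at 238, 169.6 and 264 CPM in the CKO libraries (1.43, limma's adjusted p = 0.0115). For both genes, unlike the 38, every CKO library was above every WT library, as for 14.5% of all genes tested, but neither passed without WT 1, without WT 2, without CKO 1 or without CKO 3. Tpm2 also did not pass without WT 3 or with TMM scaling of the libraries (limma's adjusted p = 0.0763 and 0.0564).

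In the other lists limma called no gene with all libraries, whereas DESeq2 called Cox6a2, a muscle and heart subunit of cytochrome oxidase, lower (log2 fold change -1.63, DESeq2's adjusted p = 0.0353, against limma's -1.49 and adjusted p = 0.0898). Among the other energy genes, Eno3, the muscle enolase, was high in both libraries standing apart, with 87 reads in WT 3 and 82 in CKO 2 against 21 to 32 in the other libraries, and Pfkm, muscle phosphofructokinase, had 26 to 56 reads and a difference of -0.46 (limma's adjusted p = 0.341). Of the membrane genes Cav3, the caveolin of muscle, was at 13.0 to 15 CPM in WT and 5.20 to 7.94 CPM in CKO (-0.93, limma's adjusted p = 0.120), and Itga7, the laminin receptor of fibres, had 1 to 10 reads. Of the regulators Mef2d and Mef2a, partners of the MyoD family that many tissues express, differed by 0.95 and 0.086 (limma's adjusted p = 0.157 and 0.932).

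Markers of other cell types that a dissection could hold moved with some of these libraries, and their part in the muscle values was not tested. Of 10 heart genes listed 6 had an entry, and the atrial light chain Myl7, the heavy chain Myh6 and Nppb had at most 2 reads in any library, so the defining heart markers were at or near 0. Tnnt2, a troponin T of heart and of embryonic skeletal muscle, was the exception with 9 reads in CKO 2. The summed level of 8 smooth muscle genes was 104 to 188 CPM in WT and 167 to 253 CPM in CKO, with Actg2, the smooth muscle gamma-actin, higher in CKO (log2 fold change 1.83, limma's adjusted p = 0.0237). That of 7 tendon genes was 619, 760.2 and 933 CPM in the WT libraries and 395, 224 and 406 CPM in the CKO libraries, highest in WT 3 and lowest in CKO 2. Within it Tnmd, a marker of tendon cells, had 173 reads in WT 3 and 37 to 49 elsewhere. The 8 fibroblast genes followed the same order at the extremes, with 5148 CPM in WT 3 and 1231 CPM in CKO 2. Fmod of the tendon list and Dcn of the fibroblast list, both matrix proteoglycans, were lower in CKO past the threshold.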

How the data were processed

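RNA was extracted with TRIzol and libraries were built with a stranded mRNA kit (VAHTS). Per the labels, the submitters' processing notes name cutadapt 2.5, HISAT2 and featureCounts 1.6.3, with no roles. The genome build, the annotation and the use of strand in counting were not given in the sources used here. The deposited table holds CPM of 15803 genes, computed by the authors from counts, and 100% of values were whole reads within 0.01 of a read. These recovered counts gave 1153871 to 1454094 reads per library. Coordinates, exon lengths and near-identical copies (90% identity over 300 bases, BLAST 2.17.0) came from GENCODE vM21.

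Genes averaging 1 CPM or more were tested with limma 3.58.1 (trend) on log2(CPM + 1), 3 WT against 3 CKO, with Benjamini-Hochberg adjustment over 12155 genes. Fold changes on that scale understate the change of low genes. Alternatives were a pseudocount of 0.1, no filter, a filter of 5 CPM, TMM scaling, a replicate block, leaving out each library, and edgeR 4.0.16 (quasi-likelihood) and DESeq2 1.42.0 on recovered reads. Added after seeing the data were leaving out WT 3 with CKO 2, and edgeR without a filter. Isoform ratios used an exact permutation test in scipy 1.17.1, and the fits were tested on simulated data.

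The 34 genes with an entry were described. Of the wider lists the genes past the threshold were named or, with none, the 2 per list with the highest mean CPM. The 38 genes and all lists were chosen with earlier results of these data known. Single genes named from the marker lists without a call, Cox6a2, Fabp3 and the 4 promoters were picked after their values were seen. A gene of the wider list is not reported here.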

Additional observations from a re-analysis of the deposited data

How the results depend on the processing

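At this depth 12 of the 34 muscle genes never exceeded 3 reads, so differences in them were not detectable, and WT 3 or CKO 2 set most of the others. Casq2 and Mybph are among these 12, yet they averaged above 1 CPM, were tested and count in the median and the counts of tested genes. The median log2 fold change stayed positive under every alternative run. Without WT 3 the summed levels of the genotypes no longer overlapped, at 160.2 and 109 CPM in WT against 215 to 434 CPM in CKO. The ratios of Tnnc2 to Tnnc1 and of Myl1 to Myl4 did not overlap between the genotypes with all libraries. The median ranged from 0.024 to 0.71 with 1 library left out, and the CKO to WT ratio of the summed level from 0.933 to 2.15. The difference in the log2 ratio of Tnni2 to Tnni1 was 0.050 without CKO 1. The cause of the changes below was not tested.

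The number of the 38 genes higher in CKO past the adjusted threshold was 0 to 1 with 1 library left out (1 without WT 3) and 2 without WT 3 and CKO 2 together. Over all genes tested, 2.66% were higher without WT 3 and 11.0% without WT 3 and CKO 2 together. By the criterion of the methods the number higher was 0 to 3 with 1 library left out (3 without CKO 1), 2 with no filter and 0 with edgeR. It was 2 without WT 3 and CKO 2 together and 3 with edgeR and no filter. The number lower was 0 to 1, the 1 being Myom1 without CKO 2. Over all genes tested, 592 of 12147 passed upward without CKO 1, 731 of 15803 with no filter and 380 of 7704 with edgeR. Upward counts were 797 of 11911 without WT 3 and CKO 2 together and 724 of 15803 with edgeR and no filter. Downward, 808 of 12055 passed without CKO 2. Of the wider list 0 to 2 genes were higher with 1 library left out (2 without CKO 2), and 1 each with the replicate block, with TMM scaling, with DESeq2 and with edgeR and no filter. Over all genes tested, 692 of 12055 were higher without CKO 2, 225 of 12155 with the replicate block and 330 of 12155 with TMM scaling. Those higher were 344 of the 8440 given an adjusted p with DESeq2 and 482 of 15803 with edgeR and no filter. Without WT 3 and CKO 2 together 3 were higher, Fabp3, a fatty acid-binding protein, joining Tpm2 and Cryab (log2 fold change 0.87, limma's adjusted p = 0.0116). In that list 0 to 1 was lower with 1 library left out, and 1 each with DESeq2, without WT 3 and CKO 2 together and with edgeR and no filter. This gene was Cox6a2 (log2 fold change -1.49, limma's adjusted p = 0.0898 with all libraries and 0.0325 without WT 3). Over all genes tested, 221 of 12114 were lower without WT 3, 606 of 12055 without CKO 2 and 1098 of 11911 without WT 3 and CKO 2 together. Those lower were 305 of the 8440 given an adjusted p with DESeq2 and 526 of 15803 with edgeR and no filter.

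Single differences turned direction without passing the threshold. Mybpc1 was -0.14 with a pseudocount of 0.1, and Myom1 was 0.038 with DESeq2 and 0.036 with edgeR and no filter. Without WT 3 and CKO 2 together Tnnc2 was 0.37, Myl1 0.24, Mylpf 0.57, Mybph 0.020 and Atp2a1 0.061. With 1 library left out the log2 fold change ranged from -0.025 to 0.54 for Acta1, -0.24 to 0.86 for Neb, -0.78 to 0.15 for Tnnc2, -0.35 to 0.69 for Tnni1, -0.96 to 0.29 for Tnni2, -0.64 to 0.43 for Mylpf, -0.13 to 0.077 for Mybph, -1.07 to 0.071 for Myom1, -0.073 to 0.38 for Casq2, -0.73 to 0.68 for Atp2a1, -0.024 to 1.2 for Chrna1 and -0.79 to 0.76 for Ckm.

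WT and CKO libraries share replicate numbers, but the deviations of same-numbered libraries correlated by only 0.038, -0.13 and -0.10, so the numbers were not taken as pairs. With the replicate number as a block, 0 of the 24 genes tested passed, as without it, with a median of 0.24, and 1 of the 2 genes of the wider list passed, Cryab. TMM factors were 0.97 to 1.02 and moved the median of all genes from 0.013 to -0.028.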

Other observations

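The other cell type lists gave the following summed levels, beside which the muscle values stand untested. The 8 epidermal genes with an entry were at 29.6 to 55.8 CPM in WT and 208 to 217 CPM in CKO, with Perp, a desmosomal protein, and Sbsn, a protein of the stratified epidermis, higher in CKO past limma's adjusted threshold. The 9 genes of peripheral nerve were at 645 to 669 CPM in WT and 371 to 437 CPM in CKO, with Pmp22, a myelin protein that many other cells make, lower past the threshold. No gene of the osteoblast or adipocyte list passed. Their sums in the CKO libraries 1 to 3 were 1316, 375 and 1408 CPM for 8 osteoblast genes and 651, 67.1 and 650.0 CPM for 8 adipocyte genes, so that CKO 2, the library with the most Myog, had the least of both. The endothelial and erythroid lists did not exceed 19.1 and 28.9 CPM in any library.

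The genes outside muscle whose level over the 6 libraries was most like the summed level of the muscle genes were not contractile genes. Of 8678 genes averaging 5 CPM or more, the first 10 by Pearson's r on the log2 scale were Clec4n, Ccl2, Ppa1, Stt3b, Psmd1, Ank, Nr1h2, Cobll1, Mfge8 and Pfkp. Their r ran from 0.964 to 0.998 with all muscle genes and from 0.838 to 0.954 when Myog was left out of the sum, and only 1 of them, Ank, then stayed among the first 10. Ccl2, a chemokine that draws monocytes, reached 7.97, 3.75 and 344 CPM in the WT libraries 1 to 3 and 33.0, 302 and 31.2 CPM in the CKO libraries 1 to 3. Clec4n, the lectin receptor dectin-2 of myeloid cells, had 15.2 CPM in WT 3 and 17.3 CPM in CKO 2 and at most 3.47 CPM elsewhere. These likenesses are descriptions over 6 libraries, selected from many genes, and WT 3 and CKO 2 were the highest libraries for each of the 10.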
